A study of Mus musculus with 8 samples.

Results

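A set of 10 immediate-early transcription regulators was followed in mouse bone marrow-derived macrophages (BMDMs) after knockdown of MAARS, a long noncoding RNA. These were the FOS-family genes Fos, Fosb and Fosl2, the JUN-family genes Jun, Junb and Jund, the zinc-finger genes Egr1, Egr2 and Egr3, and Ier2. They were taken by symbol, and each was matched to 1 Ensembl gene among the 49315 genes of the count table. BMDMs are primary macrophages grown from C57BL/6 marrow, here with 10 ng/ml macrophage colony-stimulating factor (M-CSF). All cultures were transfected with Lipofectamine 3000, 4 with negative control gapmeR and 4 with MAARS gapmeR, each at 25 nM per the labels. A gapmeR is an antisense oligonucleotide through which RNase H cuts the targeted RNA. It was given to the whole culture, and the knockdown was partial. The 8 libraries hold no other arm, so loss of MAARS cannot be told apart from other effects of the oligonucleotides. The labels name no further stimulus and do not say whether the cultures came from separate mice, so p-values measure the spread between these libraries.

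FOS and JUN proteins carry a basic region that binds DNA and a leucine zipper that pairs them, and the pairs form the AP-1 transcription factor. JUN proteins can pair with one another, whereas FOS proteins need a JUN partner. EGR proteins bind GC-rich sites through zinc fingers, and NAB proteins restrain them. Signals that pass through MAP kinases, M-CSF receptor signalling among them, switch most of these genes on within minutes without new protein synthesis. Their mRNAs are often short-lived because decay factors bind AU-rich elements in their 3′ UTRs.

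Library totals were 19287279 to 20567123 counts with control gapmeR and 20839671 to 24541205 with MAARS gapmeR, with no overlap. Values below are CPM, counts scaled to a common library size with TMM factors that correct for composition, and are listed in the order of replicates 2, 5, 6, 7 (control) and 9, 11, 13, 15 (MAARS gapmeR). The targeted RNA, annotated as Gm14461, fell from 13.1 ± 1.36 to 6.82 ± 0.844 CPM (SD, n = 4 each; log2 fold change -0.95, edgeR adjusted p = 5.8e-05). All 8 macrophage markers examined were detected and tested, of which 4 rose (Csf1r, Itgam, Lyz2 and Mertk) and 3 fell (Cd68, Fcgr1 and C1qa). Their summed level was 14200 to 17300 CPM in control and 17100 to 20300 CPM in MAARS gapmeR libraries. Lyz2 made up most of this sum, with means of 9402 and 13170 CPM, so the sum mainly follows 1 gene. Mean levels of the 3 that fell went from 2162 to 1710 CPM (Cd68), 808 to 190 CPM (Fcgr1) and 381 to 248 CPM (C1qa). Markers of neutrophils and their precursors summed to 72.2 to 210 and 74.5 to 120.0 CPM, and those of stromal and endothelial cells to 459 to 1050 and 719 to 1230 CPM. Of these lists 6 and 7 markers of 8 were tested, and none passed edgeR's test, also at an unadjusted p under 0.05. With DESeq2 0 passed after adjustment, and 1 of each list was lower at an unadjusted p under 0.05. Lymphocyte markers stayed under 1 CPM in sum, and the dendritic-cell list and the mast and erythroid list each summed to under 3 CPM in every library, with Mcpt4 at 0. The share of counts on mitochondrial genes was 0.397% to 0.548% in control and 0.694% to 0.868% in MAARS gapmeR libraries, again with no overlap. The part of these library differences in the results was not tested. In bulk RNA, fewer cells of a type and less RNA per cell cannot be told apart.

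Of the 10 factors, 9 passed the filter on low counts and were tested, and Egr3 was too scarce. Fosl2, Egr1 and Egr2 rose, Fos, Jun and Junb fell, and Fosb, Jund and Ier2 did not pass an adjusted p of 0.05 (quasi-likelihood test of edgeR, Benjamini-Hochberg adjustment across all 13051 genes tested). Read against the background, 3 of 9 were higher where 21.3% of all genes tested were, and 3 of 9 were lower where 24.0% were. In 3 of 9, Fosl2, Jun and Egr2, the 4 libraries of one group did not overlap the 4 of the other, against 42.1% of all genes tested. The median log2 fold change of the 9 was 0.08, against 0.01 over all genes tested. In either direction 6 of 9 were called, against 45.4% of all genes tested, and nothing particular to the set is read from counts this small. When libraries were scaled by upper quartiles, 60.4% of all called genes were higher instead of 47.0%, and 4 factors were higher and 1 lower. Among the 9 tested, Egr2 had the widest change.

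**Figure D1:**
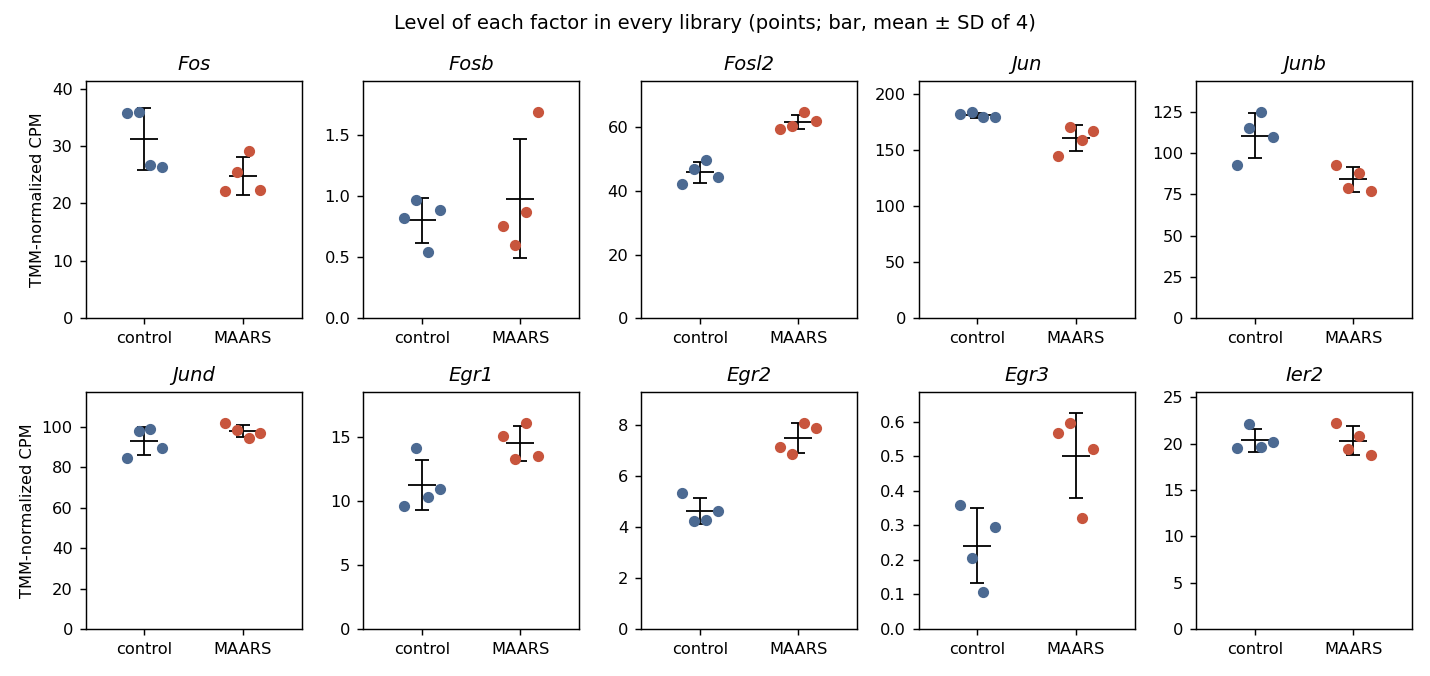
TMM-normalized CPM of each factor (vertical axes, from 0 and scaled per gene) in the 4 control gapmeR and 4 MAARS gapmeR libraries (points, with bars for mean ± SD). The groups lie apart for Fosl2, Jun and Egr2, and the points of Ier2 and Jund intermix.

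Counted per length of annotated exon, the JUN genes were the most abundant of the 10. In control libraries Jun had 56.8 ± 0.689, Jund 55.6 ± 4.14 and Junb 48.0 ± 5.86 CPM per kb (SD, n = 4). Ier2 and Fos followed with 13.4 ± 0.802 and 13.3 ± 2.29 CPM per kb. Jun and Jund did not differ beyond their spread, and neither did Ier2 and Fos. Below them came Fosl2 with 4.73 ± 0.331, Egr1 with 2.51 ± 0.442 and Egr2 with 1.36 ± 0.149 CPM per kb. Fosb with 0.129 ± 0.0296 and Egr3 with 0.0548 ± 0.0248 CPM per kb were near the limit of detection. In MAARS gapmeR libraries Jund, at 58.7 ± 1.87 CPM per kb, stood above Jun at 50.3 ± 3.65 CPM per kb, and the order of the other 8 was the same. Fos then had 10.5 ± 1.41 and Ier2 13.4 ± 1.02 CPM per kb.

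Fosl2 encodes FRA-2, a FOS protein that lacks the strong activation domain of c-FOS. It lies on chromosome 5 from 32135801 to 32157842 (GRCm38, plus strand), with 4 exons in the transcript with the longest coding sequence. Its level was 42.3, 47.0, 49.6 and 44.3 CPM with control gapmeR, against 59.5, 60.5, 64.7 and 61.9 CPM with MAARS gapmeR. Each MAARS gapmeR library lay above each control library. Its log2 fold change was 0.43 (standard error 0.0575, 95% interval 0.30 to 0.56, adjusted p = 0.000135 from edgeR), a rise by 34.6%, and the two-sided exact permutation test over libraries gave p = 0.0286, the smallest that 4 against 4 allow. The call was kept in all 16 alternative fits (other scalings, tests and filters, a surrogate variable, GC and length offsets, and each library left out).

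Fos, the founding member of the family, lies on chromosome 12 from 85473890 to 85477273 on the plus strand. It had 35.8, 35.9, 26.7 and 26.4 CPM with control gapmeR, against 22.1, 25.5, 29.2 and 22.4 CPM with MAARS gapmeR. The controls formed a high and a low pair, and the low pair lay inside the range of the MAARS gapmeR libraries. Its log2 fold change of -0.33 (standard error 0.124, 95% interval -0.60 to -0.06, adjusted p = 0.0463 from edgeR) just passed the threshold, and the exact permutation test gave p = 0.114. The adjusted p was above 0.05 when control replicate 2 (0.119), control replicate 5 (0.118) or MAARS gapmeR replicate 9 (0.104), 11 (0.0747) or 15 (0.119) was left out. It was 0.05 with RLE factors, 0.0947 with upper-quartile factors and 0.0722 with GC and length offsets (all from edgeR).

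Fosb, which encodes a close relative of c-FOS and lies on chromosome 7 from 19302696 to 19310051 on the minus strand, was read at the edge of detection. Its counts were 16, 19, 10 and 18 with control gapmeR, against 16, 15, 19 and 39 with MAARS gapmeR. MAARS gapmeR replicate 15 stood above all other libraries. Its log2 fold change was 0.28 with a 95% interval from -0.49 to 1.05 (adjusted p = 0.544 from edgeR), and without replicate 15 it was -0.12.

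Fos and Fosl2 both carry the AU-rich pentamer ATTTA in the 3′ UTR, and their elements are shown because the pair moved in opposite directions. Sense-strand searches of the same kind of transcript of each gene (GENCODE M21, GRCm38) found 4 pentamers in the 815 bases of the Fos 3′ UTR and 8 in the 4653 bases of the Fosl2 3′ UTR, or 4.91 and 1.72 per kb. The heptamer TATTTAT, which contains the pentamer, first occurs at base 656 and base 3024 of these UTRs, counted from the base after the stop codon. The 30 bases around it are given with the pentamers in capitals.
Fos: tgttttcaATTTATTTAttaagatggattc
Fosl2: aggcacttttctATTTAtcctcttttaaga
In Fos the pentamers overlap in 1 run, and in Fosl2 the pentamer stands alone in this window. Of the 10 factors, 9 had the pentamer (all but Ier2) and 5 the heptamer (Fos, Fosb, Fosl2, Jun and Jund), against 66.3% and 27.6% of the 11665 protein-coding genes tested that have an annotated 3′ UTR. The heptamer stands in Fosl2, which rose, and in Fos and Jun, which fell.

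Junb encodes a JUN protein that is a weaker activator than c-JUN. It lies on chromosome 8 from 84974484 to 84978718 on the minus strand and consists of 1 exon in its coding transcript. It had 92.7, 115, 125 and 110 CPM with control gapmeR, against 92.9, 78.7, 88.0 and 77.2 CPM with MAARS gapmeR. Control replicate 2 and MAARS gapmeR replicate 9 were level, and the other 3 controls lay above every MAARS gapmeR library. Between groups the log2 fold change was -0.39 (standard error 0.0884, 95% interval -0.59 to -0.20, adjusted p = 0.00395 from edgeR), a change of -23.8%, and the exact permutation test gave p = 0.0571. The call was kept in all 16 alternative fits. Of its exonic bases, 7.5% overlap Prdx2 on the opposite strand, whose counts of 2749 to 3482 per library could share reads with it if the counting ignored strand.

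Jun, which encodes c-JUN, lies on chromosome 4 from 95049034 to 95052222 on the minus strand, again as 1 exon. Its control libraries were close together, at 182, 184, 180 and 179 CPM, and the MAARS gapmeR libraries had 144, 171, 159 and 167 CPM. Every MAARS gapmeR library was below every control library. The change was small, at -0.18 on the log2 scale (standard error 0.0531, 95% interval -0.29 to -0.06, adjusted p = 0.0189 from edgeR; exact permutation test, p = 0.0286). With upper-quartile factors it was -0.11, with an adjusted p of 0.107 from edgeR. The antisense gene Junos overlaps 7.3% of its exonic bases and had 11 to 25 counts per library.

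Jund, the JUN gene known for its steady expression in resting cells, lies on chromosome 8 from 70698949 to 70700616 on the plus strand. It had 84.6, 98.1, 99.0 and 89.5 CPM with control gapmeR, against 102, 98.3, 94.7 and 96.8 CPM with MAARS gapmeR. The groups overlapped. The difference of 0.08 on the log2 scale (95% interval -0.05 to 0.20, adjusted p = 0.28 from edgeR) leaves room for a rise of up to 0.20 and a fall of up to 0.05. The adjusted p was 0.0477 with upper-quartile factors, and with GC and length offsets the sign turned, to -0.05. An annotated gene on the opposite strand, Gm11175, overlaps 52.6% of its exonic bases and had no count in any library. If the counting ignored strand, reads in the shared bases could have been given to neither gene. The level of Jund per kb and its share of the JUN family would then be too low, which was not tested.

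**Figure D2:**
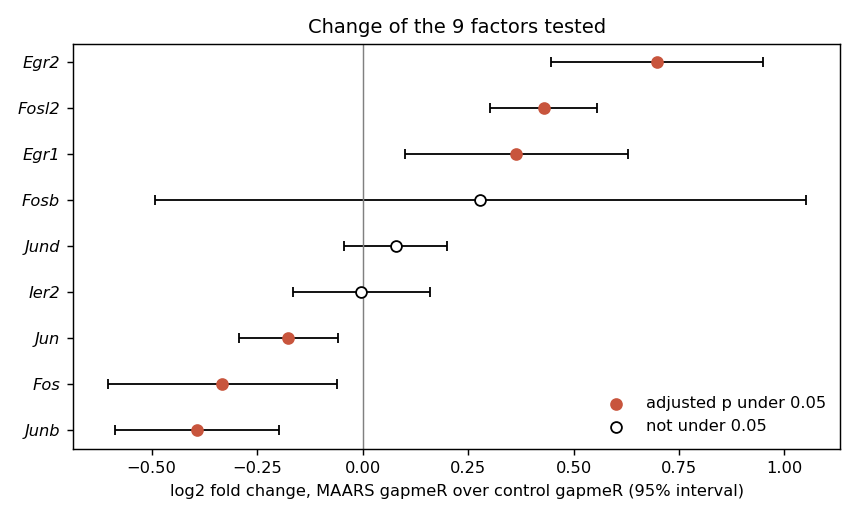
Log2 fold change of MAARS gapmeR over control gapmeR (horizontal axis) for the 9 factors tested, with 95% intervals as bars. Egr2, Fosl2 and Egr1 lie to the right of 0, Jun, Fos and Junb to the left, and the intervals of Fosb, Jund and Ier2 include 0.

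Because members of a family compete for partners and sites, the make-up of each family was compared within libraries, as the share of each gene in the counts per kb of exon summed over the family's members in the set. This share does not depend on the scaling between libraries, and it is given as a description. Among Fos, Fosb and Fosl2, Fosl2 held 22.2% to 30.9% in control libraries and 34.8% to 39.5% in MAARS gapmeR libraries, without overlap. The share of Fos was 68.5% to 77.2% and 58.8% to 64.5%, and that of Fosb stayed under 2% in every library. With Fosl1, which is not in the set, added to the sum after the data had been seen, Fosl2 held 21.8% to 29.9% and 33.1% to 37.7%, and Fosl1 itself 1.63% to 3.65% and 4.40% to 5.19%. In the JUN family Jund held 34.1% to 35.3% in control and 39.2% to 41.7% in MAARS gapmeR libraries, without overlap, although its own CPM did not pass the test. Shares within a family are tied, so lower levels of Jun and Junb raise the share of Jund without a rise of its own. The share of Junb was 27.2% to 31.9% and 23.3% to 27.5%, which overlapped slightly, and that of Jun 33.2% to 38.5% and 30.8% to 36.5%. In the EGR family Egr1 held 56.6% to 70.9% and 55.3% to 60.1%, and Egr2 28.0% to 41.3% and 37.6% to 42.6%, with overlap for both.

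**Figure D3:**
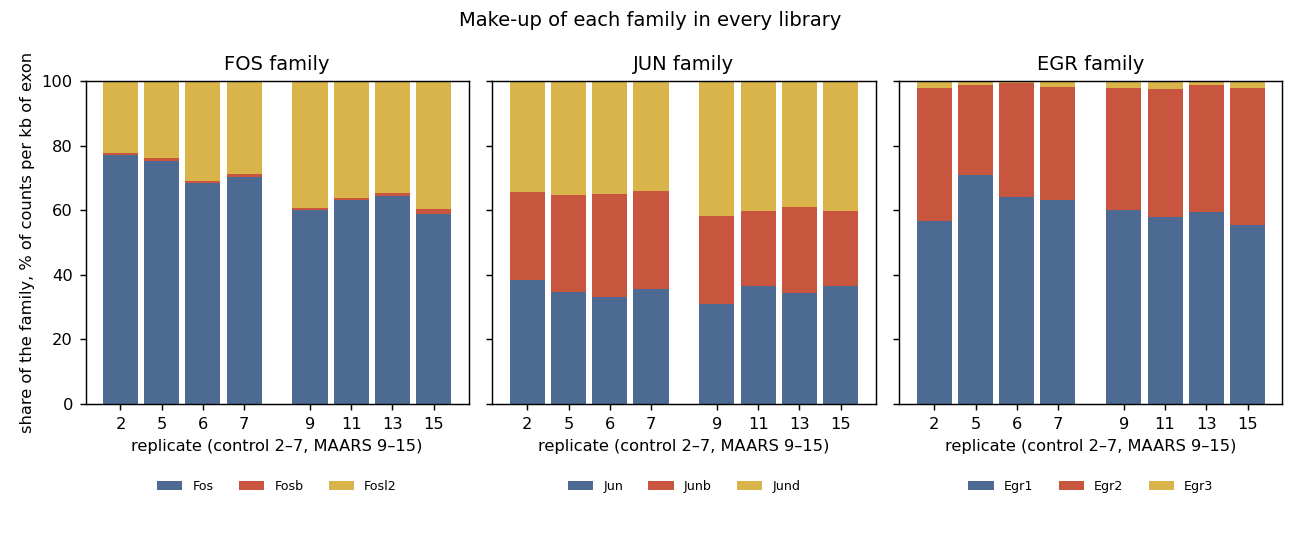
Share of each gene in the counts per kb of exon summed over its family's members in the set, without Fosl1 (vertical axis, %, stacked to 100) in every library, control gapmeR replicates on the left and MAARS gapmeR replicates on the right of each panel. Fosl2 takes 34.8% to 39.5% of the FOS-family sum in MAARS gapmeR libraries against 22.2% to 30.9% in controls, and Jund 39.2% to 41.7% of the JUN family against 34.1% to 35.3%.

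Egr2, known in macrophages for its place in M-CSF-driven differentiation, showed the widest change of the factors tested. It lies on chromosome 10 from 67535475 to 67542188 on the plus strand. Its level was 5.32, 4.23, 4.27 and 4.62 CPM with control gapmeR, against 7.14, 6.84, 8.09 and 7.89 CPM with MAARS gapmeR. The groups did not overlap. MAARS knockdown gave a log2 fold change of 0.70 (standard error 0.115, 95% interval 0.45 to 0.95, adjusted p = 0.000543 from edgeR; exact permutation test, p = 0.0286), a rise by 62.2%, and the call was kept in all 16 alternative fits.

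Egr1, an EGR gene that growth factors induce, lies on chromosome 18 from 34859823 to 34864984 on the plus strand. It had 9.63, 14.1, 10.3 and 11 CPM with control gapmeR, against 15.1, 13.3, 16.1 and 13.5 CPM with MAARS gapmeR. Control replicate 5 lay inside the MAARS gapmeR range, and the other 3 controls lay below it. Between groups the log2 fold change was 0.36 (standard error 0.12, 95% interval 0.10 to 0.63, adjusted p = 0.0282 from edgeR; exact permutation test, p = 0.0857). The adjusted p was above 0.05 when control replicate 2 (0.063), 6 (0.0768) or 7 (0.062) or MAARS gapmeR replicate 9 (0.0639) or 13 (0.0799) was left out, and 0.0521 with GC and length offsets (all from edgeR). Without control replicate 5 the log2 fold change was 0.49.

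Egr3, on chromosome 14 from 70077203 to 70082614, gave 7, 4, 2 and 6 counts with control gapmeR, against 12, 15, 7 and 12 counts with MAARS gapmeR. The higher counts were in the MAARS gapmeR group, and the groups met at 7 counts. When the filter was dropped its log2 fold change was 1.03 (95% interval 0.04 to 2.02), with an adjusted p of 0.14 from edgeR over 24350 genes, and the exact permutation test gave p = 0.0571. Egr4, the remaining EGR gene, had no count in any library.

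NAB corepressors bind EGR proteins and limit their activity, and the pair moved in opposite directions. Nab1 fell from 120.5 ± 9.14 to 89.7 ± 3.09 CPM (SD, n = 4 each; log2 fold change -0.43, adjusted p = 0.000128 from edgeR). Nab2, which EGR proteins are known to induce, rose from 25.5 ± 0.759 to 34.3 ± 4.29 CPM (SD, n = 4 each; log2 fold change 0.43, adjusted p = 0.00157 from edgeR). In both genes the groups did not overlap.

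Ier2, a nuclear immediate-early protein outside the AP-1 and EGR families, had 19.6, 22.2, 19.6 and 20.1 CPM with control gapmeR, against 22.3, 19.4, 20.9 and 18.8 CPM with MAARS gapmeR. The ranges of the groups overlapped almost completely. The log2 fold change lay within 0.01 of 0 (95% interval -0.17 to 0.16, adjusted p = 0.975 from edgeR). The gene lies on chromosome 8 from 84661331 to 84662852 on the minus strand.

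Gene structure, which was not used to choose the factors, was set beside that of all protein-coding genes tested. The coding transcripts of 4 of the 10 (Jun, Junb, Jund and Ier2) have 1 exon, against 2.21% of the 11837 protein-coding genes tested, and 9 of 10 span under 10 kb, against 23.5%. Fosl2, at 22042 bases, is the exception. RefSeq promoters (300-base windows, mostly upstream of an annotated start, GRCm38.p6) were matched for 7 of the 10, with 5 starts for Egr2. No promoter was matched for Egr1, Egr3 or Ier2, so whether theirs hold these motifs is not known here. Both strands were searched for 4 motifs, the AP-1 site TGANTCA, the CRE TGACGTCA, the EGR site GCGNGGGCG and the CArG box, which serum response factor binds. The AP-1 site and the CRE occur in none of these 11 promoters, against 7.81% and 1.79% of all 32851 promoters. The EGR site occurs in those of Fosl2 and Fosb, against 5.55% of all promoters, and the CArG box in 4 of the Egr2 promoters, against 1.63%. Of these, 1 holds the box shown, and 3 overlapping promoters farther downstream share another. The windows are shown because EGR-site letters stand in FOS-family promoters and a CArG box stands upstream of 1 annotated Egr2 start. Whether any motif has a part in the changes of these genes was not tested. Capitals mark the motif.
Fosl2, chr5:32136368-32136426, plus strand: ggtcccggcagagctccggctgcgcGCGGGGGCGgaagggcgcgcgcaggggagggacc
Fosb, chr7:19310062-19310120, minus strand: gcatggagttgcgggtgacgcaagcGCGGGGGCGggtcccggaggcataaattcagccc
Egr2, chr10:67537469-67537528, plus strand: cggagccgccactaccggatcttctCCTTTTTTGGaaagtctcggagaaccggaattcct
A match of letters is a description of the window and not a measured binding site. The motifs begin 79, 50 and 72 bases upstream of the annotated RefSeq starts at 32136472, 19310045 and 67537566. The Fosl2 and Egr2 windows lie inside the gene spans given above, downstream of the first annotated base.

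The other bZIP genes, which share partners and sites with AP-1, moved in both directions. All 13 were tested, 5 rose and 6 fell, with a median log2 fold change of -0.15. Over all genes tested, 21.3% rose and 24.0% fell, and the difference from these shares was not tested. Atf3, a stress-induced bZIP factor that pairs with JUN proteins, fell from 329.8 ± 14.3 to 218.7 ± 27.4 CPM (SD, n = 4 each; log2 fold change -0.59, adjusted p = 0.00013 from edgeR). Batf2, a bZIP gene known to be induced by interferon, fell by 1.37 on the log2 scale (adjusted p = 0.000194 from edgeR). Maf, a bZIP factor of differentiated macrophages, rose by 0.49 on the log2 scale (adjusted p = 0.000182 from edgeR). MAARS gapmeR replicate 9 had 796 CPM of Maf, against 689 to 698 CPM in the other 3. The other genes that rose were Fosl1, Jdp2, Maff and Mafg, with log2 fold changes of 0.87, 0.57, 0.88 and 0.24. These 4 are named after their values were seen, to complete the count. Fosl1, the closest relative of Fosl2, remained scarce at 0.949 and 1.74 CPM.

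Upstream, the M-CSF receptor and the MAP kinase cascade moved in both directions at the mRNA level. Of 27 genes tested, 7 rose, 6 fell and 14 did not pass, with a median log2 fold change of -0.02. The shares over all genes tested were 21.3% higher and 24.0% lower. The balance turned with the scaling, to 9 higher and 4 lower with upper-quartile factors (median 0.04) and 5 higher and 8 lower with GC and length offsets (median -0.07). Csf1r, the M-CSF receptor, rose from 1177 ± 93.7 to 1611 ± 161 CPM (SD, n = 4 each; log2 fold change 0.45, adjusted p = 0.000784 from edgeR). Within the ERK cascade Map2k1, which encodes MEK1, fell by 0.37 on the log2 scale (adjusted p = 9.66e-05 from edgeR). Mapk7, the gene of ERK5, fell by 0.37 on the log2 scale (adjusted p = 0.000238 from edgeR). Protein phosphorylation, through which these kinases act, was not measured here.

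Feedback inhibitors also split, with 4 higher and 5 lower of 16 tested and a median log2 fold change of -0.11. Among all genes tested 21.3% were higher and 24.0% lower. Dusp1, a MAP kinase phosphatase that is itself an immediate-early gene, fell by 0.47 on the log2 scale (adjusted p = 0.00642 from edgeR), with overlapping groups. Zfp36, the AU-rich element binding decay factor tristetraprolin, fell from 91.9 ± 9.17 to 70.5 ± 4.80 CPM (SD, n = 4 each; log2 fold change -0.38, adjusted p = 0.00154 from edgeR). The ERK pathway inhibitors Spred1 and Spred3 moved apart, with log2 fold changes of -0.45 and 1.00 (adjusted p = 0.000455 and 0.000198 from edgeR). Dusp5, Dusp6 and Zfp36l1, named after their values were seen, were the other genes that rose, by 0.42, 0.49 and 0.36 on the log2 scale. Dusp4 and Dusp16, named likewise, fell by 0.69 and 0.33.

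Among 25 other immediate-early genes tested, 11 fell, 4 rose and 10 did not pass, with a median log2 fold change of -0.15, against 0.01 over all genes tested. For comparison, 24.0% of all genes tested fell and 21.3% rose, and the difference from these shares was not tested. Ier5, of the same protein family as Ier2, fell from 140.8 ± 14.0 to 73.3 ± 4.66 CPM (SD, n = 4 each; log2 fold change -0.94, adjusted p = 5.45e-06 from edgeR). Gadd45b, a stress-response gene, fell from 91.7 ± 14.4 to 45.3 ± 2.14 CPM (SD, n = 4 each; log2 fold change -1.01, adjusted p = 1.38e-05 from edgeR). Klf6, a zinc-finger factor, and Plk2, a stress-induced kinase, fell by 0.49 and 0.68 on the log2 scale (adjusted p = 1.26e-05 and 2.76e-05 from edgeR). The 4 that rose, Ier3, Ccn1, Rhob and Phlda1, had log2 fold changes of 0.42, 0.88, 0.46 and 0.56. They are named after their values were seen. Of the 12 heat-shock genes, which respond to stress, 5 fell, 7 did not pass and 0 rose, with a median log2 fold change of -0.16. The difference from the shares over all genes tested was again not tested. With edgeR, DESeq2 and limma-voom 0 were higher, also at an unadjusted p under 0.05. Dnaja1, Hsph1, Hspe1 and Hspa8 fell by 0.27, 0.36, 0.22 and 0.20 on the log2 scale, and Hspd1, named after its value was seen, by 0.19. Hspa1a, Hspa1b and Hspb1, named likewise, were among the 7 that did not pass, with log2 fold changes of -0.42, 0.12 and 0.41. They were scarce, with control means of 2.0, 1.2 and 1.9 CPM.

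Genes known as AP-1 or EGR targets moved in both directions. Of 19 tested, 4 rose, 8 fell and 7 did not pass, with a median log2 fold change of -0.12. For all genes tested the shares were 21.3% higher and 24.0% lower, and the difference from them was not tested. Mmp13, a collagenase gene with a classical AP-1 promoter site, fell from 75.5 ± 10.9 to 24.8 ± 3.78 CPM (SD, n = 4 each; log2 fold change -1.60, adjusted p = 5.27e-06 from edgeR). Thbs1, the gene of the matrix protein thrombospondin-1, rose from 379.2 ± 57.0 to 1018 ± 110 CPM (SD, n = 4 each; log2 fold change 1.42, adjusted p = 5.27e-06 from edgeR). Ccl2, a monocyte chemokine, and Icam1, an adhesion molecule, had log2 fold changes of -1.90 and -1.02 (adjusted p = 1.49e-05 and 1.64e-05 from edgeR). These genes have other regulators as well, NF-κB among them. Vegfa, Cd44 and Mmp12, named after their values were seen, were the other genes that rose, by 0.59, 0.37 and 0.28 on the log2 scale.

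**Figure D4:**
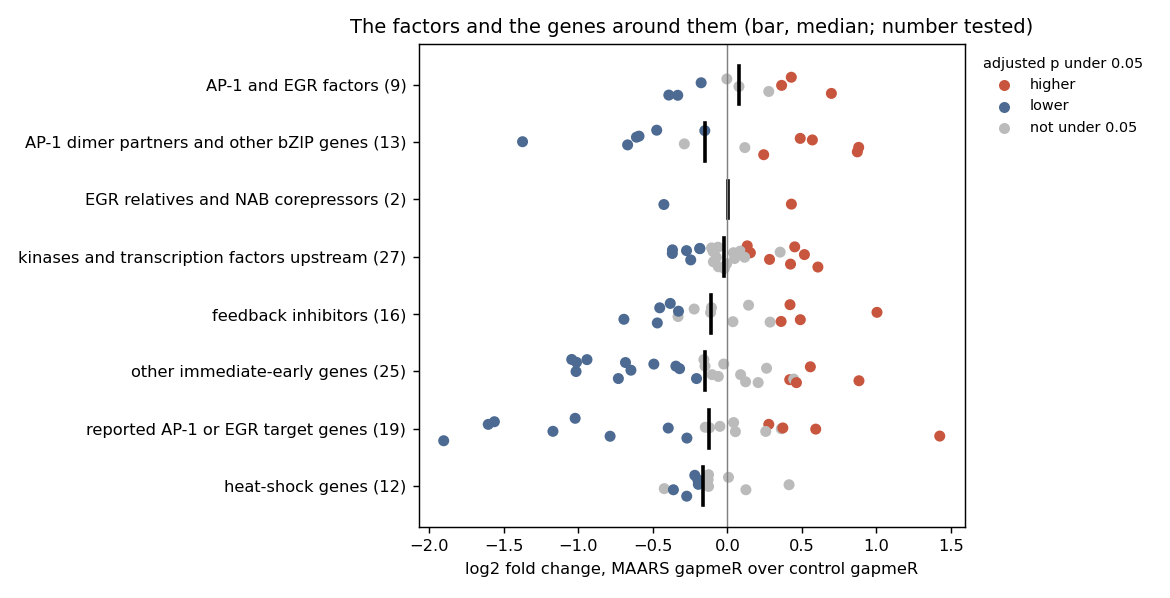
Log2 fold change of MAARS gapmeR over control gapmeR (horizontal axis) for the factors and the genes of each list (points, with the number tested and a bar at the median). Every list but the heat-shock genes has genes that rose and genes that fell, and the other immediate-early genes count 11 lower and 4 higher.

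Within groups, the factors did not share 1 outlying library. Control replicate 5 had the highest control level of 5 factors (Fos, Fosb, Jun, Egr1 and Ier2), and control replicates 6 and 2 that of 3 and 2. In the MAARS gapmeR group replicate 13 was highest for 4 factors, replicate 9 for 3, replicate 11 for 2 and replicate 15 for Fosb alone. The 5 genes outside the set whose deviations from their group means most resembled the mean deviation of the 9 factors tested were Letmd1, Sult1a1, Gm18310, B3gnt8 and Rab34. Their Pearson correlations over the 8 libraries were 0.982, 0.978, 0.957, 0.954 and 0.939. They are the top of a search through all genes tested, and values of this size are given only as a description.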

How the data were processed

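The authors trimmed the reads of 8 ribodepleted libraries (Trimmomatic 0.36), aligned them with STAR to GRCm38 (mm10) and counted reads per gene with featureCounts from Subread 1.5.2, per the labels. The deposited values are raw counts, not normalized. The strand setting is not given in the sources used here.

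The counts were analysed in edgeR 4.0.16 under R 4.3.3, with DESeq2 1.42.0, sva 3.50.0 and limma 3.58.1 for alternatives. Genes were kept by filterByExpr (minimum count 10), scaled with TMM factors and compared with glmQLFTest, with adjustment over all genes tested. CPM are TMM-normalized. Standard errors are the absolute log2 fold change over the square root of F. Positions, exon lengths and 3′ UTRs came from GENCODE M21 (GRCm38), which held 99.47% of the genes, and promoters from RefSeq. Symbols Mkl1, Mkl2 and Cyr61 were updated to Mrtfa, Mrtfb and Ccn1. The test was checked on simulated counts with 200 changed genes and 1 level of variation between libraries for all genes. These settings differ from the data, so no support for the calls is drawn from this check. No 2 replicates agreed within sampling noise (chi-square 4.24 to 15.1 per gene).

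Members and lists were chosen with earlier results of these data known. Named genes are the members, MAARS, the 4 smallest p of each list (the EGR and NAB list in full) and the 5 genes with the most similar pattern. Some of the genes so chosen are not reported here. Alternatives are given in the closing section.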

Additional observations from a re-analysis of the deposited data

Results flagged for a closer look

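Among the named genes, 84 groups of 4 libraries were examined for a library standing apart by Dixon's criterion (critical value 0.829), and 3 were found, where chance gives about 1 in 20 groups. Maf had 796 CPM in MAARS gapmeR replicate 9, against 689 to 698 CPM in the other 3. In control replicate 5, Gm18310 had 0.917 CPM against 0.433 to 0.512 CPM, and B3gnt8 had 32.5 CPM against 27.5 to 27.9 CPM. None of the 10 factors had such a library in either group.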

How the results depend on the processing

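No paired analysis was possible because the replicate numbers of the groups are not shared. Of the 9 factors tested, Fosl2, Egr2 and Junb kept direction and call in all 16 alternative fits (other factors, tests, filters, 1 surrogate variable, offsets, each library left out), and so did 29 of the 32 other named genes. Letmd1 and Gm18310 lost the call and B3gnt8 gained it in some. Egr1 and Fos lost their call in 6 and 8 fits, and Jun in 1. Values near 0 changed sign: Ier2 had 0.00346 with RLE factors, 0.059 with upper-quartile factors, 0.00304 with DESeq2 and -0.0538 to 0.0334 with 1 library left out, Jund -0.0468 with GC and length offsets, and Fosb -0.12 to 0.46 with 1 library left out. With upper-quartile factors 1 factor was lower. With a required change of 1.5 on the log2 scale, 0 factors were higher and 0 lower, with 67 and 220 of all genes. At an unadjusted p under 0.0001, 2 factors were higher (Fosl2 and Egr2) and 0 lower, with 718 genes higher and 1126 lower. At an unadjusted p under 0.05 edgeR gave 6 of the 9 factors and 6889 of all 13051 genes. With upper-quartile factors the other bZIP genes counted 6 higher and 5 lower, and the feedback inhibitors 5 and 4. The cause of these changes was not tested. Fosb and Egr3 had under 40 counts per library. Neither passed an adjusted p of 0.05 from edgeR, Egr3 in the fit without the filter, which does not show that a difference is absent.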
